A study of Homo sapiens with 8 samples.

Results

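Among 15752 merged H3K27ac regions of human pancreatic progenitors (PPs), 558 were shared promoter regions in which the peaks were shorter in both libraries treated with I-BET151 than in both DMSO libraries. Acetylation of lysine 27 on histone H3 (H3K27ac) was measured by ChIP-seq, in which chromatin fragments bound by an antibody are sequenced and enriched stretches are called as peaks. Overlapping peaks of the 4 libraries (1 bp or more in common) were joined. Candidate regions had a peak in all 4 libraries, a merged width under 2000 bp and their strongest summit within 3 kb of where a protein-coding transcript starts, and 8654 regions met these terms. A candidate was called narrowed if the smaller of the DMSO covered lengths was at least 1.2 times the larger of the I-BET151 covered lengths, where the covered length is the number of bp of the region that lie in peaks of a library. The members were therefore chosen by covered length, and covered length is given below as a description, with no test over the members. Narrowed regions were 6.45% of the candidates, and they lay nearest to starts of 548 genes.

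All libraries came from PPs made from MEL1, an established line of human embryonic stem cells. The study's methods name it MEL1 INSGFP/W, a reporter line with GFP placed in the insulin gene. The PPs were kept in EF6, a DMEM medium with the supplement B27, EGF (50 ng/ml), bFGF (10 ng/ml) and the TGFβ receptor inhibitor 616452 (10 μM). Either the solvent DMSO (2 H3K27ac libraries) or 1 μM I-BET151 (2 H3K27ac libraries) was added for 7 days, and 4 input libraries of chromatin without immunoprecipitation have no peak list of their own. Nothing states that the replicates came from separate cultures, so the spread between them may be technical.

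The depth that the peak lists imply was 7.96 and 9.84 M ChIP reads in DMSO, and 7.76 and 8.04 M in I-BET151 (M, the prefix mega), and the lists held 12312 to 14248 peaks. All 9 PP markers looked for, PDX1, NKX6-1 and SOX9 among them, had a peak within 3 kb of a start in every library. The 6 endocrine markers and the pluripotency markers POU5F1 and NANOG had 0 in every library, while 1 of 4 hepatic markers (APOA1), 1 of 4 fibroblast markers (PDGFRB) and 1 or 2 of 2 intestinal markers had one. A marker list of peaks does not give the share of other cell types, and fewer acetylated cells and less acetylation per cell cannot be told apart in such bulk libraries.

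H3K27ac is laid down by the acetyltransferases p300 and CBP on nucleosomes flanking active promoters, usually on both sides of a nucleosome-poor start. Acetylated histone tails are bound by the tandem bromodomains of BET proteins, which recruit the elongation factor P-TEFb to promoters. I-BET151 occupies these bromodomains and displaces BET proteins from acetylated chromatin. Most mammalian promoters of broadly used genes lie in CpG islands, stretches rich in the dinucleotide CG.

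The sequences below show what the part of a region that stayed covered and the part that lost its cover looked like. Core is a stretch covered in all 4 libraries, and trimmed is a stretch covered in both DMSO but neither I-BET151 library. They come from the 3 members with the highest ratio of covered lengths (RHOF, PITPNM1 and SH3TC1) and from the 2 most strongly called members (STRN3 and ASXL1, as ranked by the lowest −log10 q over the 4 libraries). Stretches of up to 180 bases outside annotated untranslated exons were read from hg38, 5′ to 3′ on the strand of the gene, with every CG in capitals.
RHOF core: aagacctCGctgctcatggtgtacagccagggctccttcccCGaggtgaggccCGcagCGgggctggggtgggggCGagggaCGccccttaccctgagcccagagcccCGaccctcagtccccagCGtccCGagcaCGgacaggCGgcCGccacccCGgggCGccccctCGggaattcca
RHOF trimmed: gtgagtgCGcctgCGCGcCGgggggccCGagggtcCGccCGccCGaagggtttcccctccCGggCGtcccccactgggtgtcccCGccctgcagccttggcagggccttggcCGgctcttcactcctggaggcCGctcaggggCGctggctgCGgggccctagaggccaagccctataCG
PITPNM1 core: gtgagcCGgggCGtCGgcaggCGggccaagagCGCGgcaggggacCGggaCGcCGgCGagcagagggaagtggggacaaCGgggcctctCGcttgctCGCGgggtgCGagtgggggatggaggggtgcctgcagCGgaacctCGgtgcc
PITPNM1 trimmed: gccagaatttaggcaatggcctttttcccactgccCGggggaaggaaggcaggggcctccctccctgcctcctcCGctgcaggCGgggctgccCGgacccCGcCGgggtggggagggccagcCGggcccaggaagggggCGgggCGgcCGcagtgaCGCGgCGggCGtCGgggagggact
SH3TC1 core: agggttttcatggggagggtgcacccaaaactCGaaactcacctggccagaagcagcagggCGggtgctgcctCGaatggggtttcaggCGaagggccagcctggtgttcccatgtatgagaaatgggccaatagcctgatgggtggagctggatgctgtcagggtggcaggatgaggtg
SH3TC1 trimmed: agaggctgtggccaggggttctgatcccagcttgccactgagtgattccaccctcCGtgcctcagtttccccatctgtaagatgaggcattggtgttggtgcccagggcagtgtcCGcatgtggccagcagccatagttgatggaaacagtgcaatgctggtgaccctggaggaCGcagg
STRN3 core: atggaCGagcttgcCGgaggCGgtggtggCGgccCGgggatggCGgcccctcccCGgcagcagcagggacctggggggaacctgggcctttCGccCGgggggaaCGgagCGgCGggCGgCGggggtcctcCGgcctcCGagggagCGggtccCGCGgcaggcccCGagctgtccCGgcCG
STRN3 trimmed: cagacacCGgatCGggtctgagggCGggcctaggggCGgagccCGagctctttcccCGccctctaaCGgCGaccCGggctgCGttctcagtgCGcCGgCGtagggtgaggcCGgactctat
ASXL1 core: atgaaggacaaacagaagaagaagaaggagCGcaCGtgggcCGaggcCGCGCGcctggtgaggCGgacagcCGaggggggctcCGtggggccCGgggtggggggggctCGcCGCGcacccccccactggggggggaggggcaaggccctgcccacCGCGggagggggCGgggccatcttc
ASXL1 trimmed: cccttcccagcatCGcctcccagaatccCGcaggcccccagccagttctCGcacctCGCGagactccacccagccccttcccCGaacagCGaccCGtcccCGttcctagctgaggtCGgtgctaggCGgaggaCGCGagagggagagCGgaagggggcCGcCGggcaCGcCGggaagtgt

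On hg38 the RHOF core lay at chr12:121793361-121793540 and the trimmed stretch at chr12:121792972-121793151, 209 to 388 bp beyond the start into the gene, both read from the minus strand. The PITPNM1 core (chr11:67505039-67505187) ended 1 bp before the start and its trimmed stretch (chr11:67505366-67505545) lay 328 to 507 bp upstream, also on the minus strand. In SH3TC1, on the plus strand, both stretches were inside the gene, the core (chr4:8182321-8182500) 246 to 425 bp and the trimmed part (chr4:8182569-8182748) 494 to 673 bp from the start. The STRN3 core (chr14:31026006-31026185, minus strand) began with the coding sequence, and its trimmed stretch (chr14:31026522-31026642) lay 143 to 263 bp upstream. The ASXL1 core (chr20:32358776-32358955, plus strand) lay 427 to 606 bp inside the gene and its trimmed stretch (chr20:32358012-32358191) 158 to 337 bp upstream. The CG counts of core and trimmed stretch were 15 and 16 in RHOF, 17 and 15 in PITPNM1, 4 and 3 in SH3TC1, 22 and 14 in STRN3, and 16 and 18 in ASXL1. SH3TC1 stood apart as CG-poor, with 58.9% GC in the core, whereas the other 4 cores ranged from 73.3 to 80%.

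In the narrowed regions, mean covered length was 907 and 904 bp in DMSO replicates 1 and 2, and 550 and 555 bp in I-BET151 replicates 1 and 2. The median region lost 301.5 bp (quartiles 184.75 and 455.625 bp), and the losses ranged from 69 to 1415 bp. The median ratio of the smaller DMSO to the larger I-BET151 length was 1.34, and 167 members reached a ratio of 1.5, 48 a ratio of 2 and 7 a ratio of 3. The opposite tail was smaller. By the mirrored rule 170 candidates (1.96%) widened, with mean covered lengths of 547 and 584 bp in DMSO, against 942 and 917 bp in I-BET151.

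Over all 8654 candidates, which were not chosen for any difference, the mean covered length was 796 and 783 bp in DMSO (789.7 ± 9.4, SD, n = 2) and 770 and 742 bp in I-BET151 (755.9 ± 19.9, SD, n = 2). Both I-BET151 libraries were below both DMSO libraries, and the difference was −33.7 bp (two-sided exact permutation test over libraries, p = 0.33, which is the lowest value possible with 2 libraries a group). Narrowing by 1.2-fold or more was thus seen in a small share of shared promoters, beside a median candidate that lost 19.5 bp.

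**Figure D1:**
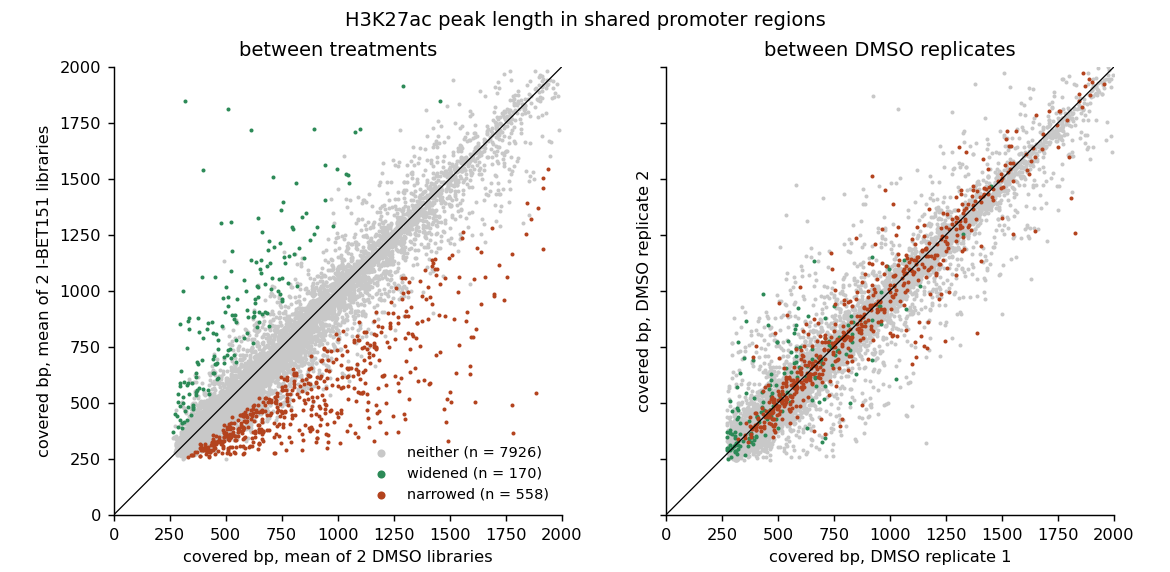
Covered bp of each of the 8654 candidate regions, left as the mean of the 2 DMSO (x) against the mean of the 2 I-BET151 libraries (y), right as DMSO replicate 1 (x) against DMSO replicate 2 (y). Each point is a region, red for the 558 narrowed, green for the 170 widened and grey for the other regions, with the line of equality; the red points lie below the line on the left, as the rule demands, and on both sides of it on the right.

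The strongest narrowing was at the promoter of RHOF, which encodes a small GTPase involved in filopodia (chr12:121792586-121794390). Peaks there covered 1757 and 1805 bp in DMSO, against 403 and 329 bp in I-BET151. In DMSO called peaks filled nearly the whole merged region, whereas in I-BET151 only a short stretch next to the start stayed covered. PITPNM1, coding for a phosphatidylinositol transfer protein, went from 1440 and 1546 bp to 332 and 325 bp (chr11:67504572-67506190). SH3TC1, a gene named for its SH3 and tetratricopeptide domains, went from 1758 and 1803 bp to 456 and 522 bp (chr4:8181645-8183470). In both genes the libraries of a treatment differed by far less than the treatments did, which the choice by ratio favours.

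CACNB3, a β subunit of voltage-gated calcium channels, had 1506 and 1464 bp in DMSO, against 396 and 435 bp in I-BET151 (chr12:48814345-48815850). The promoter of SHANK2, a scaffold protein of synapses and epithelia, had the longest cover of the first 15 members in DMSO, 1894 and 1876 bp, and 522 and 568 bp in I-BET151 (chr11:71251387-71253307). At TAPBP, the tapasin gene of MHC class I peptide loading, cover went from 1252 and 1179 bp to 336 and 392 bp. In all 3 genes the treatments lay much further apart than the replicates, which follows from the choice by ratio and is no support for it.

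The other members among the 15 with the highest ratio were GSDMD, which encodes the pore-forming gasdermin D of pyroptosis, TMEM86B, TMEM184A, VGLL4, KDM2B, TTC38, RAB43, C19orf33 and CAMK2G. Their ratios ran from 2.59 to 3.03. At KDM2B, a histone demethylase that binds CpG islands, cover went from 1310 and 1643 bp to 454 and 489 bp. At VGLL4, a cofactor of TEAD proteins, it went from 1417 and 1591 bp to 479 and 526 bp, and at CAMK2G, a calmodulin-dependent kinase, from 1175 and 1365 bp to 453 and 288 bp. Some of these ratios depended on 1 library. Without DMSO replicate 2, whose single peak joins 2 peaks of DMSO replicate 1, the ratio was 1.21 in place of 2.69 at VGLL4 and 1.597 in place of 2.68 at KDM2B. At CAMK2G it was 4.08 in place of 2.59 without I-BET151 replicate 1. GSDMD was 1 of only 2 members, with SURF1, in which no bp was covered in all 4 libraries.

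Measured as bp lost instead of as a ratio, 3 further genes entered the first 10. ITPR3, an IP3-gated calcium channel of the endoplasmic reticulum, had 1807 and 1415 bp in DMSO, against 556 and 452 bp in I-BET151. FAM174C had 1481 and 1492 bp against 282 and 752 bp. PFKFB3, a regulator of glycolysis, had 1539 and 1647 bp against 439 and 816 bp. In FAM174C and PFKFB3 the I-BET151 libraries differed from each other far more than the DMSO libraries did. The groups did not overlap, as the rule demands. Without I-BET151 replicate 2 the ratio rose from 1.97 to 5.25 in FAM174C and from 1.89 to 3.51 in PFKFB3.

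**Figure D2:**
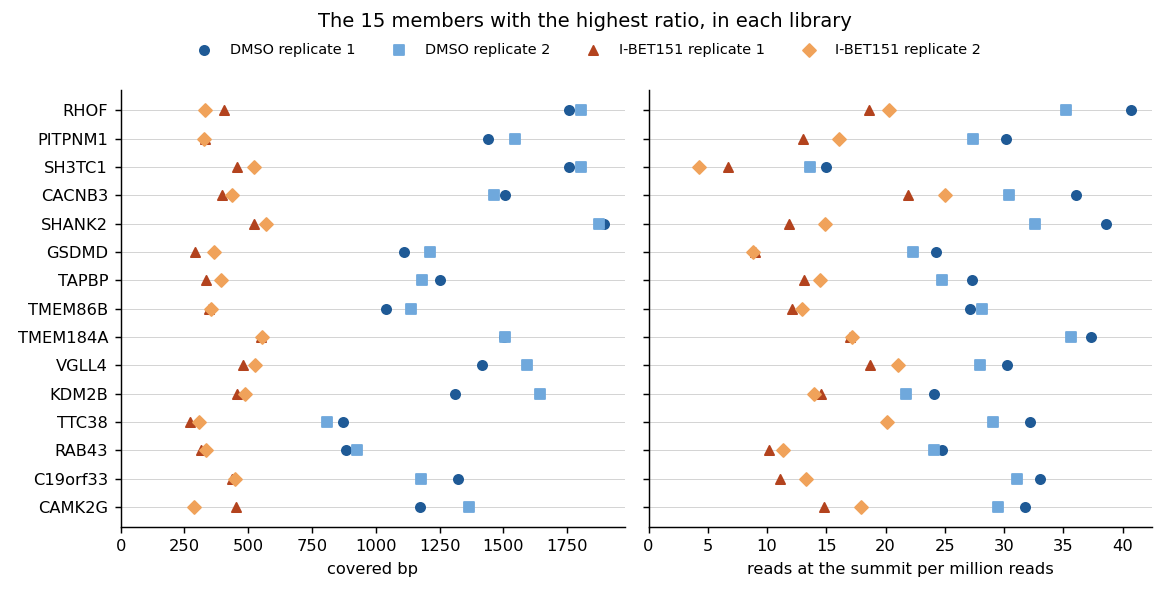
Covered bp (left) and RPM at the summit (right) for the 15 narrowed regions with the highest ratio, 1 row per region named by its gene. Circles and squares are DMSO replicates 1 and 2, triangles and diamonds I-BET151 replicates 1 and 2. In covered bp the treatments do not overlap, as the rule demands. In summit reads they do not overlap where all 4 values could be worked out, and TTC38 has no summit value for I-BET151 replicate 1. Height comes from the same reads as length, so the choice by ratio favours this.

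At the threshold the difference was small. The members just inside were PGK1 (455 and 579 bp in DMSO, 290 and 379 bp in I-BET151), HOMER3 (501 and 485 bp, 404 and 403 bp) and ZNF607 (462 and 504 bp, 385 and 253 bp). The candidates just outside were ELOVL1 (1714 and 1687 bp, 1362 and 1406 bp), TRAPPC2L (605 and 559 bp, 422 and 466 bp) and ZNF383 (543 and 487 bp, 406 and 299 bp). These 6 were picked for a ratio near the threshold. Without I-BET151 replicate 1 the ratio at ZNF607 was 1.83 in place of 1.2.

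The summits of narrowed regions were also lower. The median member had 27.5 and 25.9 RPM (reads at the summit per M ChIP reads of the library) in DMSO and 17.5 and 19.3 in I-BET151, while the median candidate had 30.1 and 28.0 in DMSO and 26.8 and 28.9 in I-BET151. Members were thus close to an ordinary promoter in DMSO and well under it in I-BET151. In the 518 members with a value in every library the median ratio of I-BET151 to DMSO was 0.740 (range 0.266 to 1.14), against 0.993 over the 8418 candidates with such values. Both I-BET151 libraries were below both DMSO libraries in 435 of the 518 members (84.0%), and in 31.8% of the candidates. They were above both DMSO libraries in 5 members (0.965%), and in 27.5% of the candidates. The length and the height of a peak come from the same reads and the same libraries, so this share is a description and was not tested.

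At RHOF the summit had 40.7 and 35.3 RPM in DMSO and 18.6 and 20.3 in I-BET151. At SHANK2 it had 38.6 and 32.6 against 11.9 and 14.9. CLDN4, which encodes the tight junction protein claudin-4, had 20.2 and 20.9 RPM against 6.83 and 7.46. In these 3 genes the gap between the treatments was larger than the gap between the replicates of either. The summit reads of all 14 resolved regions among the 15 with the highest ratio were lower in both I-BET151 libraries, with ratios from 0.376 to 0.706. Among all candidates with values in every library this held in 31.8%. Height comes from the same reads as length, so the choice by ratio favours these gaps, and they were not tested.

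The input level at the summits, worked out from the deposited fold and p-value, was 52.2 and 45.3 times the genome-wide input level in DMSO and 45.5 and 48.8 times in I-BET151 in the median member, and the ratio of I-BET151 to DMSO had a median of 0.969, against 0.953 over all candidates. The fold enrichment, as the authors deposited it, had a median of 5.12 and 6.19 in DMSO and 4.09 and 4.39 in I-BET151 in the members, a ratio of 0.761.

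**Figure D3:**
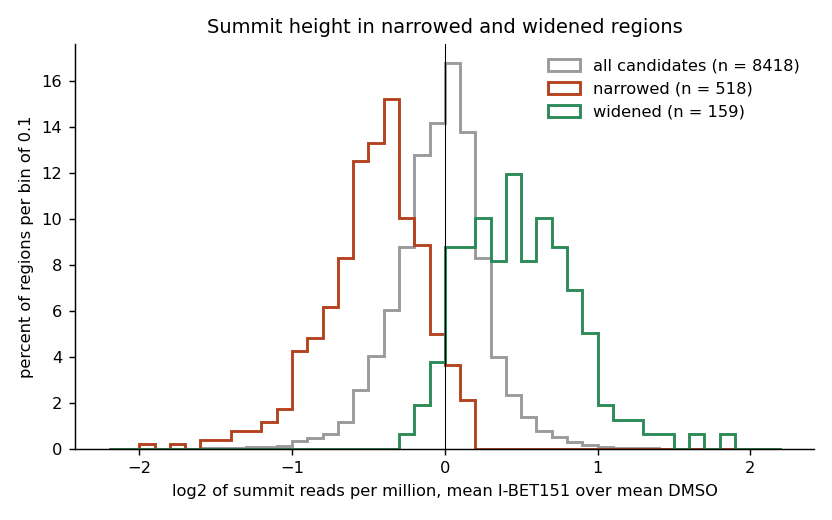
Distribution of the log2 ratio of summit RPM, mean I-BET151 over mean DMSO (x axis), as percent of regions per bin of 0.1 (y axis), for the 8418 candidates, 518 narrowed and 159 widened regions with values in all 4 libraries. The narrowed regions centre below 0 (median ratio 0.740) and the widened ones above it (median ratio 1.39).

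The 10 most strongly called members differed in height. These were STRN3, ASXL1, SLC25A6, PPP6R3, ZBTB7A, ISCA1, DDIT4, LPCAT4, PPDPF and DUSP3. STRN3, a striatin subunit of a protein phosphatase complex, had 53.4 and 45.0 RPM in DMSO and 53.6 and 53.6 in I-BET151, although its cover went from 1361 and 1274 bp to 1026 and 1052 bp. PPP6R3, a regulatory subunit of protein phosphatase 6, had 43.6 and 39.2 against 39.7 and 44.04 RPM, with a cover of 1228 and 1231 bp in DMSO, against 785 and 715 bp in I-BET151. At ASXL1, a Polycomb-associated protein, the summit had 52.0 and 42.8 against 51.3 and 52.3 RPM, and the cover was 1460 and 1408 bp against 1124 and 1075 bp. Both I-BET151 summits were below both DMSO summits in 2 of the 10 and above them in 3, and the ratio ran from 0.834 to 1.13. Over all candidates with values in every library these shares were 31.8 and 27.5%. In the other 5 the treatments overlapped, which with 2 libraries a group does not show that the summits were unchanged. At ISCA1 the ratio of covered lengths fell from 1.40 to 1.03 without DMSO replicate 2, so that it was no longer narrowed. The ranking uses the I-BET151 libraries too and thereby favours regions that stayed tall in them.

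The bp that lost their cover lay on either side. Of 136777 trimmed bp in the members, 52.4% lay on the gene side of the core, 43.6% on the side away from the gene and 4.04% between covered stretches. The share on the gene side was the same over all candidates (52.4% of 246173 bp). Cover was trimmed on both sides in 396 members (71.0%), on the gene side alone in 86 (15.4%) and on the other side alone in 70 (12.5%). Over all candidates these shares were 14.7, 17.5 and 13.7%. The amounts were often unequal. Of 418 members with at least 100 bp trimmed outside the core, 269 (64.4%, 95% Wilson interval 59.7 to 68.8%) had at least 80% of it on 1 side, 145 on the gene side and 124 on the other. Widened regions were alike. Of 140 with at least 100 bp added outside the core, 97 (69.3%, interval 61.2 to 76.3%) had at least 80% of it on 1 side. Wilson intervals here and below cover counting error only. SHANK2 lost 877 bp on the gene side and 133 bp on the other, SH3TC1 834 and 311 bp, PITPNM1 197 and 758 bp, and VGLL4 21 and 755 bp. RHOF and CACNB3 lost long stretches on both sides, 577 and 715 bp and 487 and 542 bp. Sides are set by the nearest transcript start alone. The strongest summits of RHOF, PITPNM1 and CACNB3 lay upstream of that start yet in an annotated intron. Their side away from the gene can therefore lie inside a gene. Of the 10 strongly called members, STRN3, ASXL1, PPP6R3, ZBTB7A, ISCA1 and PPDPF lost 237 to 435 bp upstream and 0 bp on the gene side, and DUSP3 lost 229 and 40 bp. The other 3 lost more on the gene side, LPCAT4 0 bp upstream and 285 bp on the gene side, DDIT4 4 and 156 bp, and SLC25A6 0 and 65 bp, with 174 bp between covered stretches.

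**Figure D4:**
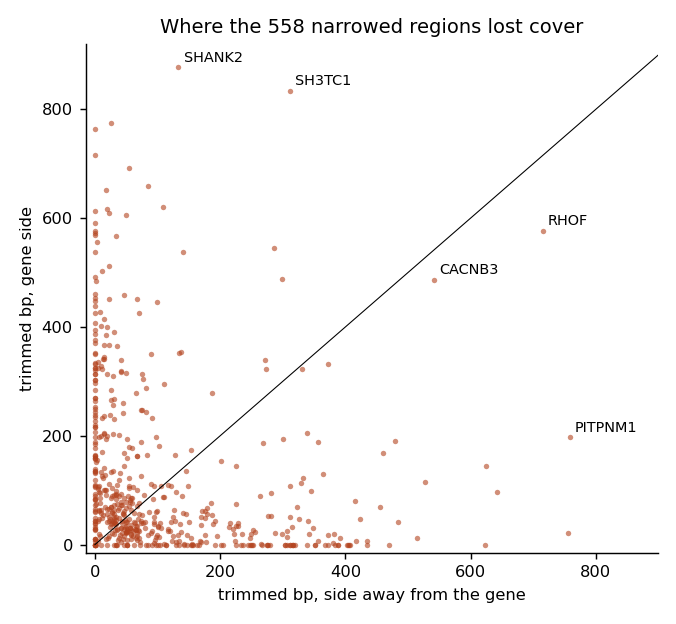
Trimmed bp (covered in both DMSO but neither I-BET151 library) on the side away from the gene (x axis) and on the gene side (y axis) in each of the 558 narrowed regions, with the line of equality. Many points lie close to one of the axes, and the 5 members with the highest ratio are named.

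The strongest summits of 2 libraries lay a median of 25.5 bp apart between the DMSO replicates and 24 bp apart between the I-BET151 replicates in the members. In the 4 pairs of libraries from different treatments this distance was 24 to 27 bp. Summits lay within 50 bp of each other in 76.9 and 77.1% of members between replicates, and in 70.1 to 76.9% between treatments. In the median member the summit lay 147 to 159.5 bp into the gene in the 4 libraries, and 74.7% of members had it downstream of the start (73.4% of candidates). The annotated start itself was covered in both DMSO libraries in 414 members (74.2%, against 73.2% of candidates). It was covered in both I-BET151 libraries in 252 (45.2%, against 69.5% of candidates). In 105 members (18.8%) the start had cover in both DMSO but neither I-BET151 library, against 2.30% of candidates. The start is part of the covered bp by which the members were chosen, so these counts describe where the loss lay and nothing is read from their direction.

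Cover also broke up. More than 1 peak per region was found in 2.87 and 3.41% of members in DMSO and in 8.96 and 7.71% in I-BET151. Over all candidates these shares were 2.18 and 2.90% in DMSO and 3.15 and 3.41% in I-BET151. A gap between peaks shortens the covered length by which the members were chosen. The rule thus favours split cover in I-BET151, and nothing is read from its direction. At CDKN1A, which encodes the cell cycle inhibitor p21, DMSO had 1 peak of 1792 or 1763 bp. In I-BET151 the region had 2 peaks of 1203 or 1131 bp in all, with 402 bp trimmed upstream and 151 bp between covered stretches. LMNA, the gene of lamins A and C, had 962 and 864 bp in 1 peak and 623 and 523 bp in 2 peaks, with 209 bp trimmed between them.

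Sequence, which the rule did not use, was compared between members and candidates. GC content within 250 bp of the strongest summit had a median of 71.3% in members (quartiles 66.9 and 75.4%) and 69.5% in candidates (65.1 and 73.9%). From the lowest to the highest of 5 equal classes of GC content the share of candidates that were narrowed was 4.28, 5.58, 6.57, 7.05 and 8.88%, the last with an interval of 7.63 to 10.3% and the first with 3.44 to 5.32%. The share that widened went from 1.33 to 3.48% over the same classes, so both tails were larger at high GC content. By CpG observed over expected the order was not the same, with 8.16% narrowed in the lowest of 5 classes and 5.60% in the highest. By merged width the share was 3.73% under 500 bp, 10.5% in the class before the widest of 6 and 7.56% in the widest. Merged width, unlike sequence, comes from the same peaks as covered length, and the rule limits it to under 2000 bp. The shortest peaks of the libraries were 247 to 272 bp long, so a region under 500 bp has less room to narrow. Nothing is therefore read from the order by width.

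The lost stretches held fewer CG than the kept ones, in members and elsewhere alike. In 436 members with at least 100 trimmed bp and 100 core bp there were 7.81 CG per 100 bp in the trimmed and 10.5 in the core part (medians), and the trimmed part had fewer in 334 of them (76.6%). In all 594 such candidates, which include these members, the medians were 7.69 and 10.4. Neither the RHOF nor the ASXL1 pair printed above followed this order.

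Short motifs were looked for on both strands within 250 bp of the strongest summit, as letters only. The YY1 motif AAGATGGCG was found at 5 members (0.896%, interval 0.383 to 2.08%) and 4.65% of candidates. The NRF1 motif GCATGCGC was at 1.43% of members and 3.41% of candidates, and the NFY motif CCAAT at 22.2 and 25.7%. The AP-1 motif TGANTCA was more common in members, 6.81% (5.00 to 9.21%) against 4.17%. The SP motif GGGCGG, which can overlap others and was present in most windows, was at 88.4 and 86.4%, and the ETS motif CCGGAAG at 16.1 and 18.5%. The other 10, CRE TGACGTCA, E-box CACGTG, the TATA box (TATAAA), FOXA TGTTTAC, the GATA factors (AGATAAG), SOX ACAATGG, ONECUT (ATCGATT), RBPJ GTGGGAA, TEAD GGAATGT and ZNF143 ACTACAATT, differed by at most 1.48 percentage points. A match of letters is no sign of binding. With windows of 100 bp the differences for AP-1, NRF1 and YY1 shrank to 0.168, −0.312 and −0.572 percentage points.

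Narrowed regions lay near other losses. A region called in both DMSO but neither I-BET151 library lay within 10 kb of 71 members (12.7%, interval 10.2 to 15.7%), against 4.02% of candidates. A region gained in the same sense lay near 1 member (0.179%), against 0.994% of candidates. Another narrowed region lay within 10 kb of 40 members (7.17%), against 2.37% of candidates. No widened region lay that near to any member, but only 0.335% of candidates had one, so little can be read from this. These neighbours were called from the same libraries and are a description. Genes with 2 members each were C8orf58, CAST, CFL1, DUSP8, FLNA, KIFC3, MYO1C, RBX1, SLC26A6 and TMEM86B. Around TMEM86B, which encodes a lysoplasmalogenase, adjoining regions went from 1040 and 1138 bp to 345 and 352 bp and from 1073 and 1080 bp to 415 and 320 bp. At DUSP8, a MAP kinase phosphatase, adjoining regions went from 678 and 858 bp to 292 and 289 bp and from 597 and 639 bp to 300 and 318 bp.

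Genes were next read by pathway, against the 6.45% of all candidates that narrowed. Of 716 candidates at genes of 20 lists, 42 (5.87%) narrowed, so the lists as a whole were close to the background. The lists of PP regulators and of the Notch pathway held no member, which says nothing of PP genes outside these lists. HHEX, which was in no list, was a member (ratio 1.5, and 4.65 without I-BET151 replicate 1). None of 36 candidates at PP regulators narrowed, and 4 widened (11.1%, against 1.96% of all candidates), among them FOXA2, GATA4 and HES1. At FOXA2, a pioneer factor of endoderm, cover was 518 and 465 bp in DMSO, against 704 and 702 bp in I-BET151, and at HES1, a repressor induced by Notch, it was 995 and 1098 bp against 1557 and 1474 bp. None of 24 Notch pathway candidates narrowed. With so few candidates a share at the background would itself mean only a few regions.

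The MYC network, in which MAX is the shared partner of MYC and of its MXD antagonists, had 4 of 15 candidates narrowed and 2 widened. MAX went from 786 and 764 bp to 530 and 515 bp, with summits of 29.3 and 26.1 RPM in DMSO and 14.1 and 14.9 in I-BET151. MXD1 went from 601 and 735 bp to 349 and 398 bp, MXI1 from 489 and 813 bp to 392 and 348 bp, and MGA from 1098 and 673 bp to 502 and 553 bp. All 4 narrowed promoters belong to partners or antagonists of MYC. The widened ones belong to MYC, at 1073 and 919 bp in DMSO, against 1558 and 1533 bp in I-BET151, and MYCL, at 288 and 377 bp and 464 and 504 bp. Nothing is read from this split, since the list joins MYC genes with genes of their partners and antagonists. It was chosen with earlier results of these data known, and 11 of its 12 genes had a candidate. In MXI1 and MGA the DMSO replicates differed widely, and the smaller DMSO value was close to the I-BET151 values. The ratio went from 1.25 to 2.07 at MXI1 without DMSO replicate 1 and from 1.22 to 1.99 at MGA without DMSO replicate 2.

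In the Hippo pathway 4 of 21 candidates narrowed (19.0%, against 6.45% of all candidates) and 0 widened. Over all 21 candidates of the list the median loss was 22.5 bp, close to the 19.5 bp of all candidates. TEAD4, a DNA-binding partner of YAP, had 1536 and 1546 bp in DMSO, against 886 and 1241 bp in I-BET151, and VGLL4 is given above. The secreted CCN proteins are classic YAP targets. CCN1 had 794 and 780 bp against 538 and 272 bp, and CCN2 had 689 and 660 bp against 510 and 420 bp. The ratio at CCN1 was 1.45, and 2.87 without I-BET151 replicate 1. At VGLL4 it was 1.21 without DMSO replicate 2.

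Genes of epithelial junctions and cytoskeleton had 8 of 54 candidates narrowed, in 7 genes, and 0 widened. ACTB, which encodes β-actin, had 1071 and 1113 bp in DMSO, against 694 and 407 bp in I-BET151, at a region whose strongest summit lay 1878 bp upstream of its start and had 25.9 and 21.0 RPM against 7.86 and 8.34. Without I-BET151 replicate 1 its ratio was 2.63 in place of 1.54. The tight junction genes CLDN4 (401 and 453 bp, 262 and 255 bp), CGN for cingulin (1097 and 1087 bp, 801 and 764 bp) and F11R for the adhesion molecule JAM-A (449 and 462 bp, 355 and 346 bp) narrowed as well. So did both regions of FLNA, the gene of the actin crosslinker filamin A, with 538 and 595 bp against 346 and 401 bp and 1293 and 1331 bp against 962 and 1028 bp. LLGL2, a polarity protein, had 584 and 609 bp against 401 and 476 bp, and LMNA is given above. Over all 54 candidates of the list the median loss was 22 bp, close to the 19.5 bp of all candidates.

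Genes that act with BET proteins or early after growth signals had shares near the background. HEXIM1, the inhibitor of P-TEFb, and SUPT5H, a subunit of the elongation factor DSIF, were 2 of 26 in their list. HEXIM1 had 1164 and 746 bp in DMSO, against 259 and 392 bp in I-BET151, and SUPT5H had 723 and 772 bp against 554 and 370 bp. The call at HEXIM1 rested on 1 library. Its ratio of 1.90 was 1.11, under the threshold, without DMSO replicate 1, 2.97 without DMSO replicate 2 and 2.88 without I-BET151 replicate 2. The immediate early genes IER2, IER5 and ZFP36 were 3 of 34, and FOS widened from 468 and 628 bp to 780 and 783 bp. IER5 had 1077 and 1146 bp against 598 and 679 bp, and the trimmed 408 bp were all on the gene side. ZFP36, which encodes an mRNA decay factor, had 859 and 832 bp against 612 and 325 bp, and its ratio of 1.36 was 2.56 without I-BET151 replicate 1.

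Receptor and kinase genes of EGF and FGF signalling, the growth factors of the medium, had 3 of 29 narrowed and 2 widened. MAPK3, the gene of ERK1, lost most, from 1315 and 1279 bp to 307 and 590 bp, with 34.0 and 32.7 RPM against 13.7 and 15.8. Its ratio was 2.17, and 4.17 without I-BET151 replicate 2. FGFR3 went from 917 and 843 bp to 408 and 482 bp, and PTPN11, the phosphatase SHP2, from 528 and 486 bp to 378 and 403 bp. FGFR1 was among the genes with a widened region.

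Cell cycle genes had 3 of 50 narrowed (CCND2, CDK6 and CDKN1A) and 2 widened (AURKA and RFC3), chromatin regulators 4 of 71 (ASXL1, KDM2A, KDM2B and KDM5B), spliceosome genes 3 of 41 (PRPF6, PUF60 and SRSF11) and cytosolic ribosomal proteins 3 of 58 (RPL8, RPL9 and RPL13). KDM2A, like KDM2B a demethylase that binds CpG islands, had 1117 and 1118 bp in DMSO, against 689 and 696 bp in I-BET151. CDK6, a kinase of G1 progression, had 740 and 768 bp against 571 and 348 bp. Lists with 1 narrowed region were TGFβ and BMP (BMP4, of 38), WNT (TCF7, of 27), small GTPase regulators (TBC1D1, of 46), proteasome (PSME1, of 23) and stress response (DDIT4, of 35). PSME1, which encodes a subunit of a proteasome activator, had 536 and 502 bp against 400 and 363 bp. Without DMSO replicate 2 the ratio at RPL13 fell from 1.24 to 1.05, under the threshold, and that at PRPF6 rose from 1.22 to 2.40. The ratio rose from 1.296 to 2.13 at CDK6 and from 1.24 to 2.17 at BMP4 without I-BET151 replicate 1, and from 1.29 to 2.205 at TCF7 without I-BET151 replicate 2. None narrowed among 40 oxidative phosphorylation, 36 sterol and lipid and 15 collagen, laminin and integrin candidates.

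**Figure D5:**
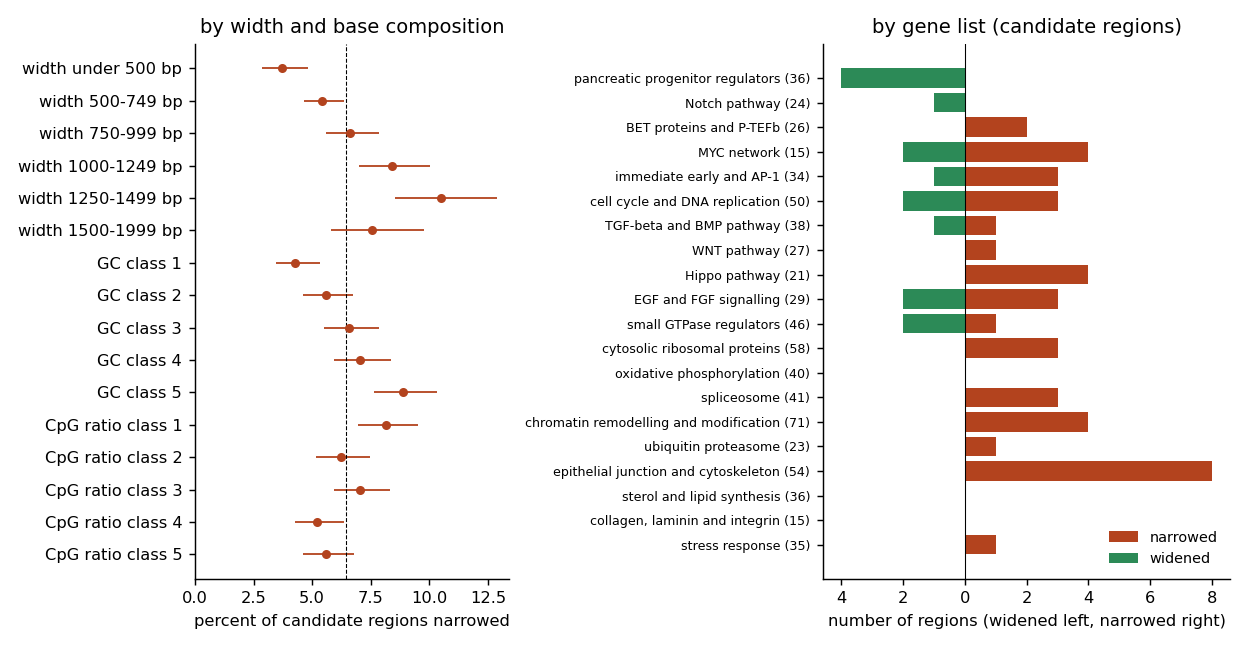
Left, percent of candidate regions that narrowed by merged width, by class of GC content and by class of CpG observed over expected (points, with 95% Wilson intervals; the dashed line is the 6.45% of all candidates). Right, number of narrowed (to the right) and widened (to the left) regions in each gene list, with the number of candidates in brackets; the longest bar is the 8 narrowed regions of the epithelial junction and cytoskeleton list, and PP regulators have 4 widened and 0 narrowed.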

How the data were processed

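H3K27ac ChIP-seq peaks were analysed for 4 libraries (2 DMSO, 2 I-BET151), grouped by their titles. The study's methods state that reads were aligned to hg38 with Bowtie2 in local mode (version 2.2.5 per the submitters' processing notes), that duplicates and mitochondrial reads were removed, and that peaks were called with MACS2 (version 2.1.2) at default settings. They do not name the control, but the fold and p-values imply a second library of 2.67 to 3.04 M reads scaled to each ChIP, which is taken here as its input. Each library had its own list, without pooling of replicates. Per peak, the deposited lists hold an interval, a summit, a fold (the ratio of ChIP to local background there), −log10 of the p-value and q-value, and a score that was not used. The lowest deposited −log10 q was 1.30 to 1.36, so weaker acetylation is not in the lists, and a covered length depends on this threshold and on depth.

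Overlapping peaks (autosomes, X and Y) were merged, assigned to the nearest of 78566 starts of protein-coding transcripts (GENCODE release 44) and measured with Python 3.11.15, numpy 2.4.6, scipy 1.17.1 and pysam 0.24.0. Coordinates are 1-based. Within 3 kb of a start lay 79.8 to 84.2% of summits, against 10.9 to 11.6% after a shift of 1 Mb. Whole ChIP reads at each summit, input levels and library depths were worked out from fold and p-value, which MACS2 computes with a pseudocount of 1 and a Poisson model. Where only 1 solution existed, it was a whole number of reads in 100.0% of peaks (tolerance 0.02), and 98.4 to 99.0% of peaks were resolved. Depth takes the genome size of 2.7e+09 bp that MACS2 assumes. The recovery and the narrowing rule were tested on simulated data. Figures were drawn with matplotlib 3.10.9.

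Named members are the 15 with the highest ratio, the 10 with the largest loss, the 10 with the highest lowest −log10 q, up to 3 per gene list by ratio, and those 3 on either side of the 1.2 ratio. Genes of narrowed or widened list regions named beyond these, HHEX, neighbouring members and the stretches with no core were named after their values were seen. Some genes of the lists are counted but not reported here by name. The members and the gene lists were chosen with earlier results of these data known. No test was run over the members, because covered length chose them. The single test, over libraries, is a two-sided exact permutation test on all candidates. Alternatives changed the replicates, merging, thresholds, starts, width limit, fragment extension and ratio. The 4 input libraries were not analysed here as samples.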

Additional observations from a re-analysis of the deposited data

How the results depend on the processing

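Leaving out 1 library moved the number of narrowed regions from 558 to between 815 and 1278 and of widened regions from 170 to between 264 and 445, since fewer lengths then have to meet the rule. Without I-BET151 replicate 1 there were 1278 narrowed regions, without I-BET151 replicate 2 there were 1062, without DMSO replicate 2 there were 984 and without DMSO replicate 1 there were 815; widened regions numbered 264, 430, 404 and 445. Of the 558 members, 558, 558, 550 and 546 overlapped a region narrowed there, but at their own summit 23 members were no longer narrowed and 2 no longer candidates in at least 1 of the 4. Over the same 4 the median ratio ran from 1.33 to 1.38, the gene-side share from 49.0 to 50.8% and the summit ratio from 0.723 to 0.811. Same-numbered libraries did not deviate together (correlation of the replicate differences over candidates 0.0587). With a replicate block, in which the rule had to hold in both same-numbered pairs, 708 regions narrowed and 219 widened, with a median ratio of 1.29, and the mean difference over candidates was again −33.7 bp (−26.4 and −41.1 bp in the pairs). A ratio of 1.1 gave 1126 narrowed and 353 widened regions (median ratio 1.199, gene-side share 51.5%), a ratio of 1.5 gave 167 and 49 (1.75, 57.7%, summit ratio 0.670), and the ratio of group means gave 1336 and 493 (1.17, 52.2%). The median ratio was 1.38 with peaks merged within 500 bp, 1.33 at −log10 q of at least 5 and 1.32 with 12312 top-ranked peaks per list. The gene-side share was 49.3% with peaks merged within 500 bp, 51.7% with top-ranked peaks, 51.7% with starts of all transcripts, 51.8% within 1 kb of a start, 53.3% with no width limit and 52.5% with 1 fragment extension, so no side held a clear majority. In windows of 100 bp the motif differences were 0.168 (AP-1), −0.312 (NRF1) and −0.572 percentage points (YY1), and the cause was not tested. The mean difference over candidates, which does not depend on the ratio of the rule, was negative in every alternative that changed the libraries, the pairing, the merging, the peaks or the starts (−50.3 to −22.1 bp). Of 955 values of the 62 named members under alternatives, 911 still met the rule, 44 did not and 0 changed direction. Several of these alternatives are looser than the rule, so members could hardly fail them. They are the ratio of 1.1, group means, the replicate block and leaving out an I-BET151 library, and each kept all 558 members. The tally was thus largely fixed in advance and does not measure stability. Depth (7.76 to 9.84 M reads) and the fixed q threshold limit how low an acetylated shoulder can be and still be called, so a trimmed stretch is one without a called peak, not one without acetylation.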

Other observations

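Among gene families sharing the first letters of their symbol, of which those with at least 30 candidates were counted after the values were known, solute carriers (SLC) had 23 of 157 candidates narrowed (14.6%, 95% Wilson interval 9.96 to 21.0%) and 6 widened, against 6.45% of all candidates narrowed. These membrane transporters and mitochondrial carriers included SLC25A6, SLC25A4 and SLC25A1 of the inner mitochondrial membrane, the zinc transporters SLC39A1, SLC39A4 and SLC39A5, and SLC26A6, an anion exchanger, with 2 narrowed regions. Zinc finger genes named ZNF had 9 of 249 (3.61%, interval 1.91 to 6.73%) narrowed and 3 widened, although chromosome 19, which holds many of them, had the highest share of any chromosome with over 100 candidates (53 of 569, 9.31%, interval 7.19 to 11.98%). Chromosome 13 had the lowest such share, 3 of 170 (1.76%). Genes named PPP had 6 of 54 (11.1%, interval 5.19 to 22.2%), and genes named ATP and WDR had 0 of 44 and 0 of 35, with intervals that reach 8.03 and 9.89%, so all 3 include the 6.45% of all candidates. These families and chromosomes were picked as the extremes after their values were seen.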
